A study of Mus musculus with 4 samples.

Results

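The lysosomal genes described here are 47 of the 42458 rows of the count table, taken by exact gene name: cystatin C, 10 cysteine proteases (9 cathepsins and legumain), 3 aspartic or serine proteases, 11 glycosidases, 9 proteins of lipid breakdown and transport, 4 sulfatases or sulfamidases, 7 membrane proteins, and progranulin with the transcription factor TFEB. All 47 had counts in every library and all 47 passed the filter of at least 10 counts in total, which left 18522 genes for testing. The lysosome is the acidic compartment in which cells take apart proteins, glycans and lipids. Its soluble enzymes are made in the endoplasmic reticulum and carried there by sorting receptors, a proton pump (the V-ATPase) acidifies it, and heavily glycosylated membrane proteins line it. In the nervous system microglia, the resident phagocytes, are known for high levels of cathepsins and of cystatin C, and inherited loss of many of these hydrolases causes storage disease of the brain.

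Each of the 4 libraries came from 50 cells sorted from the spinal cord of 1 C57BL6 mouse. All 4 mice had received the virus AAV2-CAG-tdT into a cerebral ventricle, which labels cells with the red protein tdTomato from the broadly active CAG promoter. The labels call the sorted cells enriched in cerebrospinal fluid-contacting neurons (CSF-cNs), neurons that reach into the central canal. The labels give 1 group, with no untreated or other comparison group, and neither age nor sex; the uninjected C57BL6 preparation that set the sorting gate was not analysed here.

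The libraries held 83007030 to 115479640 counts. A count of 0 was taken to allow up to 3 counts. That bound corresponded to 0.0278 to 0.0348 CPM, the usual unit of counts scaled to library size. The libraries went against their label in part. Pkd2l1, the channel that defines CSF-cNs, was at 17.9, 0.193, 664 and 690 CPM in mice 1, 2, 3 and 4, and the transgene had 5, 58, 13533 and 153379 counts. Over the 9 CSF-cN markers the sum was 20.3 and 12.9 CPM in mice 1 and 2 against 941 and 846 CPM in mice 3 and 4. The 12 microglial markers were all called above 100 CPM and summed to 47292, 54993, 31828 and 45268 CPM. The 10 oligodendrocyte markers, by contrast, summed to 15065 and 19260 CPM in mice 1 and 3 and to 238 and 459 CPM in mice 2 and 4. The sum of the 10 astrocyte markers moved the same way. It was 1253 and 1348 CPM in mice 1 and 3 and 161 and 300.5 CPM in mice 2 and 4. That pattern came from Aldoc (835, 11.6, 846 and 118 CPM in mice 1, 2, 3 and 4) and S100b (298, 4.20, 440 and 10.5 CPM). It was not shared by the whole list. Slc1a3 was lowest in mouse 3, at 115, 122, 52.1 and 155 CPM, and Gfap was highest in mouse 2, at 23.4 CPM. The 10 neuronal markers summed to 127, 97.1, 1067 and 369 CPM. The 8 ependymal markers summed to 0.00926 to 66.4 CPM, the 7 perivascular macrophage markers to 45.5 to 93.0 CPM and the 5 monocyte and neutrophil markers to 0 to 2.99 CPM. Every level below is therefore that of a mixed cell sample, and the part of each cell type in a lysosomal gene's level was not tested. In such a bulk sample fewer cells of a type and less RNA per cell cannot be told apart.

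Many lysosomal genes carry the palindrome CACGTG near their start, the core of the element that TFEB and its relatives bind. Of the 47 genes, 43 had an entry in the RefSeq promoter table (build GRCm38.p6, 250 bases before to 50 after a gene's start); Ctsb, Ctsh, Asah1 and Npc1 had none. CACGTG was found in 13 of those 43 (30.2%), with 20 matches in all, against 8.09% of the 27025 genes of the table and 25 of 114 genes (21.9%) of the other lysosomal lists introduced below. The longer palindrome TCACGTGA, which contains CACGTG, was found in 4 (9.30%), against 1.12% of all genes and 11.4% of the other lysosomal lists. Both motifs read the same on either strand. The stretches below lie upstream of the RefSeq start used in that table and outside the exons annotated by GENCODE, run 5′ to 3′ on the gene's strand, and show CACGTG in capitals. Lamp1 (chr8:13159061-13159160, plus strand) is shown because it holds 4 matches, the most of any of the 47 genes. Mcoln1 (chr8:3500357-3500456, plus), Ctsf (chr19:4855030-4855129, plus), Glb1 (chr9:114400976-114401075, plus) and Gaa (chr11:119267787-119267886, plus) show 1 match each in the stretch printed, in genes of different roles and levels. Mcoln1 holds another match nearer its start, at base -45 and outside its stretch, and that one reads TCACGTGA. Cst3 (chr2:148875577-148875631, minus), the most abundant of the genes, is shown as one with no match; its GENCODE start lies farther upstream, so this stretch is within the GENCODE gene.
Lamp1: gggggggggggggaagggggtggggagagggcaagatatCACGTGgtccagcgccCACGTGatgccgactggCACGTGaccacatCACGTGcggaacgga
Mcoln1: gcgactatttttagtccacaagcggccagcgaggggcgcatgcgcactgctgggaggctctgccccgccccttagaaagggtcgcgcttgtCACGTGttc
Ctsf: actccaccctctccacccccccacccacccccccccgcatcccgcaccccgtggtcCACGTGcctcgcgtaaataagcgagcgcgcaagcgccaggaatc
Glb1: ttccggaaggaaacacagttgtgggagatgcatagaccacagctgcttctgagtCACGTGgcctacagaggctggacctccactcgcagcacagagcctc
Gaa: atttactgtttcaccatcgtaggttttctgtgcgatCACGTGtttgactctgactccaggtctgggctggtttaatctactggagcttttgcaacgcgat
Cst3: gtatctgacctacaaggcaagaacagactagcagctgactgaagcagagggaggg
The 13 genes with CACGTG had a median of 109 CPM (12.1 to 11340 CPM) and 6 of them were called above 100 CPM, whereas the 30 without it had a median of 438 CPM and 22 were called above 100 CPM. Per kb of exon the medians were 41.0 CPM (2.74 to 4823) with the motif and 85.1 CPM (1.61 to 23393) without it, so the ranges overlapped, and the difference was not tested. A match is a description of the letters and not a bound site.

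As a group, the 47 genes took up 8.41%, 10.8%, 6.68% and 9.74% of all counts in mice 1, 2, 3 and 4 (mean 8.92% ± 1.79, SD, n = 4). Exact 95% binomial intervals, which cover counting error only, reached no farther than from 8.41% to 8.42% in mouse 1. The median level was 417 CPM, against 9.52 CPM over all genes tested. By edgeR's quasi-likelihood test with Benjamini-Hochberg adjustment over all genes tested, 44 of the 47 were called above 10 CPM (36.7% of all genes were) and 31 were called above 100 CPM (5.82% of all genes). In the other direction, 8 were called below 100 CPM (48.7% of all genes) and none was called below 10 CPM, where 123 of all genes tested were. At 100 CPM the remaining 8 could not be placed on either side. With any 1 mouse left out, 27.4% to 32.2% of all genes were called below 100 CPM and 4.79% to 5.75% above. Some calls of the 47 genes at 100 CPM were also lost then (adjusted p, edgeR's quasi-likelihood test). That of Ids was lost without any 1 of the 4 mice (0.0528 to 0.0983), that of Mcoln1 without mouse 1 (0.0660) or 2 (0.0560) and that of Galc without mouse 4 (0.0523). Gm2a lost its call without mouse 2 (0.0687) or 4 (0.106), Lipa without mouse 1 (0.0636) or 4 (0.0865) and Arsb without mouse 2 (0.0912) or 4 (0.117). In mice 3 and 4 alone, 42 of the 47 were called above 10 CPM (37.0% of all genes), 24 above 100 CPM (1.94% of all genes) and 0 below 100 CPM, where 0 of all genes were called.

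**Figure D1:**
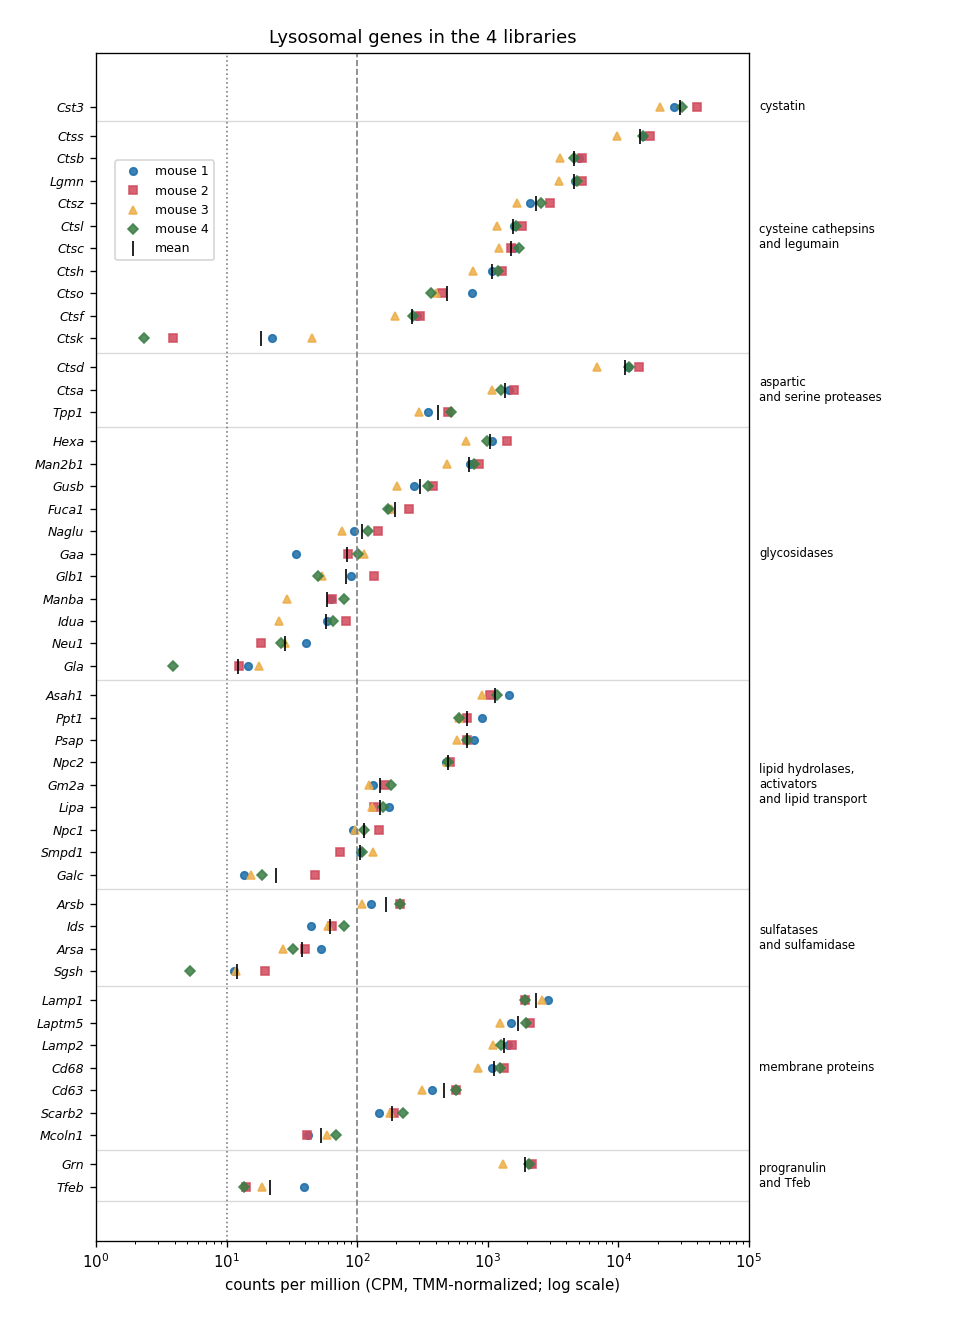
Level of each of the 47 genes in the 4 mice, in CPM on a log axis, by role, with the mean as a bar; the dotted and dashed lines mark 10 and 100 CPM. Cst3, Ctss and Ctsd stand at the right, from 6884 to 40263 CPM, and Ctsk spreads most, from 2.32 to 45.4 CPM.

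Cst3 encodes cystatin C, a secreted inhibitor of cysteine cathepsins. Its gene lies on chr2:148871722-148875692 (GRCm38, minus strand). It was at 26899, 40263, 20742 and 30556 CPM in mice 1, 2, 3 and 4 (mean 29615 ± 8172, SD, n = 4), the highest mean of any gene in the table. The highest value, in mouse 2, was 1.94 times the lowest, in mouse 3. The level was 8.21 above 100 CPM on the log2 scale (adjusted p = 2.87e-08, edgeR's quasi-likelihood test). Between mice, log2(CPM + 1) had an SD of 0.40 (n = 4). Cst3 alone took up 2.16% to 3.95% of all counts. Without it, the other 46 genes held 5.96% on average.

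Of the 10 cysteine proteases, 9 were called above 100 CPM and Ctsk was the exception. Ctss, cathepsin S, an endopeptidase that works at neutral as well as acidic pH and processes the invariant chain for antigen presentation, lies on chr3:95526786-95556403 (plus strand). It was at 15441, 17527, 9869 and 15434 CPM (mean 14568 ± 3283, SD, n = 4), the fourth highest mean of all genes. Mouse 3 was low and the other 3 mice lay close together. Its level was 7.19 above 100 CPM on the log2 scale (adjusted p = 7.68e-08, edgeR's quasi-likelihood test). The SD of log2(CPM + 1) between mice was 0.36 (n = 4).

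Ctsb, cathepsin B, a broadly acting endo- and exopeptidase, was at 5039, 5258, 3567 and 4555 CPM. Lgmn, the asparaginyl endopeptidase legumain, which trims other cathepsins to their mature forms, was at 4694, 5239, 3518 and 4799 CPM. Both were highest in mouse 2 and lowest in mouse 3, and their means were 4605 ± 751 and 4562 ± 735 CPM (SD, n = 4). Ctsz, the carboxypeptidase cathepsin Z, followed with 2127, 3011, 1676 and 2556 CPM. Ctsl (cathepsin L, an endopeptidase), Ctsc (the dipeptidyl peptidase that activates granule serine proteases) and Ctsh (an aminopeptidase) had means of 1565, 1516 and 1081 CPM. Ctsc was highest in mouse 4 and the other members of this trio in mouse 2, and all were lowest in mouse 3.

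Ctso, a little-studied cathepsin, was at 755, 445, 401 and 367 CPM, with mouse 1 above the other 3 mice. Ctsf, another member of the papain family, was the lowest of the 9 called above 100 CPM, at 290, 301, 195 and 267 CPM. Its level was 1.40 above 100 CPM on the log2 scale (adjusted p = 0.00189, edgeR's quasi-likelihood test). The SD of log2(CPM + 1) between mice was 0.28 (n = 4).

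Ctsk, cathepsin K, the collagen-degrading enzyme known from osteoclasts, neighbours Ctss on chr3:95499256-95509362 (plus strand). It was at 22.4, 3.90, 45.4 and 2.32 CPM (mean 18.5 ± 20.1, SD, n = 4). Mice 1 and 3 were high and mice 2 and 4 low, with a 19.6-fold span, the widest of the 47 genes. It was separated neither from 10 CPM (adjusted p = 0.303) nor from 100 CPM (adjusted p = 0.0592) by edgeR's quasi-likelihood test. Mice 1 and 3 were also those with high oligodendrocyte marker sums, 15065 and 19260 CPM against 238 and 459 CPM. The astrocyte marker sum was higher in the same mice (1253 and 1348 CPM against 161 and 300.5 CPM), through Aldoc and S100b and not the whole list. The part of either in the level of Ctsk was not tested.

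The 3 aspartic or serine proteases were all called above 100 CPM. Ctsd, cathepsin D, the main aspartic protease of the lysosome, lies on chr7:142375911-142388038 (minus strand). It was at 11942, 14476, 6884 and 12058 CPM (mean 11340 ± 3192, SD, n = 4), the fifth highest mean of all genes. Mouse 3 was low, and the highest value was 2.10 times its value. Another gene, Gm49369, covers 34.4% of its exons. Ctsa, the serine carboxypeptidase that also protects Neu1 and Glb1 in a complex, was at 1465, 1590, 1087 and 1271 CPM. Tpp1, tripeptidyl peptidase, was at 350, 494, 300 and 522 CPM, higher in mice 2 and 4 than in mice 1 and 3. Cst3, Ctss and Ctsd together made up 58.3% to 65.5% of the counts of the 47 genes.

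The 11 glycosidases covered a wide range, with 4 called above 100 CPM (Hexa, Man2b1, Gusb and Fuca1) and 2 below (Neu1 and Gla). Hexa, the alpha subunit of beta-hexosaminidase, was at 1076, 1397, 684 and 986 CPM, highest in mouse 2 and lowest in mouse 3. Man2b1, alpha-mannosidase, was at 735, 862, 492 and 783 CPM. Gusb, beta-glucuronidase, was at 275, 382, 202 and 347 CPM. Man2b1 and Gusb shared one order of mice, from mouse 2 over 4 and 1 to 3. Fuca1, alpha-fucosidase, was at 176, 251, 181 and 173 CPM, with mouse 2 above 3 mice that lay close together.

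The glycosidases nearer 100 CPM were less even. Naglu, which removes N-acetylglucosamine from heparan sulfate, was at 94.5, 144, 76.9 and 120 CPM. Glb1, the beta-galactosidase used as a senescence stain, was at 90.2, 136, 53.5 and 50.3 CPM. Gaa, the glycogen-degrading acid alpha-glucosidase, was at 34.2, 85.2, 113 and 102 CPM. Gaa differed from most of the group in that mouse 1 was lowest and mouse 3 highest. Manba (beta-mannosidase) had a mean of 59.2 ± 21.2 CPM and Idua (alpha-iduronidase) one of 57.9 ± 23.8 CPM (SD, n = 4), and for both mouse 3 was lowest. None of these 5 was separated from 100 CPM by edgeR's quasi-likelihood test (adjusted p from 0.0583 for Manba to 0.561 for Naglu).

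Neu1, the lysosomal sialidase, was at 40.3, 18.5, 27.8 and 26.1 CPM. Its log2 difference from 100 CPM was -1.83 (adjusted p = 0.00945, edgeR's quasi-likelihood test), with an SD of log2(CPM + 1) between mice of 0.44 (n = 4). A numbered row, Neu1_1, held the same counts, so the level of Neu1 is uncertain, also per kb. Gla, alpha-galactosidase A, was at 14.7, 12.5, 17.8 and 3.91 CPM, and mouse 4 was low. Gla was not separated from 10 CPM (adjusted p = 0.596, edgeR's quasi-likelihood test). Per kb of exon, Ctsa, Glb1 and Neu1, which are known to form 1 complex, had mean levels of 287, 27.4 and 7.55 CPM per kb.

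All 9 genes of lipid breakdown and transport were called above 10 CPM, and 6 of them above 100 CPM (Asah1, Psap, Ppt1, Npc2, Gm2a and Lipa). Asah1, acid ceramidase, was at 1455, 1042, 899 and 1173 CPM. Ppt1, which removes palmitate from proteins, was at 905, 689, 599 and 606 CPM. Psap, the precursor of the saposins that present sphingolipids to their hydrolases, was at 788, 696, 578 and 700 CPM. In these 3 genes, unlike in most cathepsins, mouse 1 was highest. Lipa, acid lipase, which frees cholesterol from its esters, had the same highest mouse at 175, 136, 129 and 159 CPM. Gm2a, the activator that lifts GM2 ganglioside to beta-hexosaminidase, was at 132, 164, 123 and 183 CPM.

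Npc2, the soluble carrier that hands cholesterol to Npc1 in the lysosome membrane, lies on chr12:84754562-84773152 (minus strand). It was at 476, 512, 490 and 499 CPM (mean 494 ± 15.4, SD, n = 4), a span of 1.08-fold, the narrowest of the 47 genes. Npc1 was at 93.2, 147, 96.5 and 114 CPM and Smpd1, acid sphingomyelinase, at 105, 73.4, 132 and 109 CPM. Neither was separated from 100 CPM (adjusted p = 0.368 and 0.725, edgeR's quasi-likelihood test). Galc, the galactosylceramidase that degrades a myelin lipid, was at 13.7, 47.9, 15.3 and 18.7 CPM and was called below 100 CPM (adjusted p = 0.0154, edgeR's quasi-likelihood test). Its highest value was in mouse 2, one of the libraries with few oligodendrocyte marker counts.

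Of the 4 sulfatases and sulfamidases, which remove sulfate from glycolipids and glycosaminoglycans, 3 were called below 100 CPM. Arsb, arylsulfatase B, was the exception, at 128, 212, 108 and 212 CPM, although Gm26527 covers 39.9% of its exons. Mice 2 and 4 were equal to the digits shown and lay above mice 1 and 3. Arsa, arylsulfatase A, was at 52.7, 39.8, 27.0 and 32.1 CPM and Ids, iduronate sulfatase, at 44.4, 64.4, 59.6 and 79.6 CPM. Sgsh, the sulfamidase of heparan sulfate breakdown, was the lowest of the 47 genes by mean, at 11.5, 19.8, 11.9 and 5.27 CPM. It was not separated from 10 CPM (adjusted p = 0.595, edgeR's quasi-likelihood test).

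The 7 membrane proteins were all called above 10 CPM and, apart from Mcoln1, above 100 CPM. Lamp1, a major glycoprotein of the limiting membrane, lies on chr8:13159161-13175338 (plus strand). It was at 2907, 1925, 2611 and 1946 CPM (mean 2348 ± 491, SD, n = 4). Mice 1 and 3 were high and mice 2 and 4 low, and these pairs did not overlap. Lamp2, its relative that also serves chaperone-mediated autophagy, had another order, with 1427, 1524, 1102 and 1260 CPM. Laptm5, found mainly in blood-derived and immune cells, was at 1505, 2116, 1241 and 1981 CPM. A numbered row, Laptm5_1, held another 90.6% as many counts, so the level of Laptm5 is uncertain.

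Cd68, a macrophage marker of late endosomes and lysosomes, was at 1073, 1323, 847 and 1243 CPM. Cd63, a tetraspanin of late endosomes and exosomes, was at 374, 572, 315 and 576 CPM. In both, mice 2 and 4 lay above mice 1 and 3. Scarb2, the receptor that carries glucocerebrosidase to the lysosome, had a mean of 186 ± 32.0 CPM (SD, n = 4). Mcoln1, the calcium channel TRPML1, was at 42.3, 41.4, 58.5 and 69.2 CPM, higher in mice 3 and 4 than in mice 1 and 2. It was called below 100 CPM (log2 difference -0.92, adjusted p = 0.0184, edgeR's quasi-likelihood test). The SD of log2(CPM + 1) between mice was 0.36 (n = 4).

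Grn, progranulin, a secreted glycoprotein that is cut into granulins in the lysosome, was at 2117, 2194, 1311 and 2068 CPM, with mouse 3 apart from the other 3 mice. Tfeb, the transcription factor that drives lysosomal genes when it enters the nucleus, lies on chr17:47737030-47792419 (plus strand). It was at 39.3, 14.2, 18.6 and 13.6 CPM (mean 21.4 ± 12.1, SD, n = 4), with mouse 1 above the other 3 mice. It was called above 10 CPM (adjusted p = 0.0337) and below 100 CPM (adjusted p = 0.0113) by edgeR's quasi-likelihood test. The call above 10 CPM was lost without mouse 1 (adjusted p = 0.236) or mouse 3 (0.0826), as was that of Galc without mouse 2 (0.221) or mouse 4 (0.0544), by the same edgeR test.

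Levels of different genes can be set side by side only per length, here per kb of the gene's summed exons. On that scale Cst3 had 23393 ± 6455 CPM per kb, Ctss 10727 ± 2418, Ctsd 4823 ± 1358, Lgmn 1964 ± 317 and Ctsz 1626 ± 397 (SD, n = 4). Lowest were Tfeb at 3.78, Gla at 3.75, Sgsh at 2.74 and Galc at 1.61 CPM per kb. Of the 46 neighbouring pairs in this order, 5 had ranges over mice that did not overlap: Cst3 with Ctss, Ctss with Ctsd, Ctsd with Lgmn, Ctsz with Cd68, and Ppt1 with Lamp2. The order of the other neighbours cannot be read beyond the spread between mice. The order also depends on the gene models. With the length of the principal transcript in GENCODE, Ppt1 had a mean of 294 and Lamp2 one of 369 CPM per kb, the reverse order. Galc then had 6.23 CPM per kb and Sgsh 2.78, so Galc was no longer lowest.

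A within-mouse log2 ratio per kb was computed for 8 pairs that share a process, a role or a complex, 7 of which are given here. With 4 mice, flipping the signs of the ratios in an exact permutation test (two-sided) cannot pass 0.05. In 6 of these 7 the first gene was higher per kb in 4 of 4 mice, which gave the smallest p the test allows (0.143 by exact permutation after adjustment over the 8 pairs). The inhibitor Cst3 exceeded the summed 9 cysteine cathepsins by 0.73 ± 0.16 on the log2 scale (SD, n = 4). Ctss exceeded Ctsb by 3.80 ± 0.13 and Ctsd exceeded Ctsb by 2.63 ± 0.23.

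Lamp1 exceeded Lamp2 by 2.64 ± 0.40 on the log2 scale per kb (SD, n = 4), with mice 1 and 3 (2.86 and 3.08) above mice 2 and 4 (2.17 and 2.46). Npc2 exceeded Npc1 by 3.20 ± 0.26. Arsb exceeded Arsa by 1.36 ± 0.61, from 0.55 in mouse 1 to 1.97 in mouse 4. Tfe3, a relative of Tfeb, exceeded it in 3 of 4 mice, by 0.60 ± 0.91 on average (exact sign-flip permutation p = 0.375), and mouse 1 went the other way at -0.56. All 7 sizes depend on the gene models, and so do directions in mouse 1. In CPM not divided by length, Tfe3 (43.7) exceeded Tfeb (39.3) in that mouse, and Cst3 lay below the summed cathepsins. Without the division by length the mean sizes were 0.15 for Cst3 over the cathepsins, 1.65 for Ctss and 1.26 for Ctsd over Ctsb, 0.81 for Lamp1 over Lamp2, 2.15 for Npc2 over Npc1, 2.07 for Arsb over Arsa and 1.30 for Tfe3 over Tfeb.

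**Figure D2:**
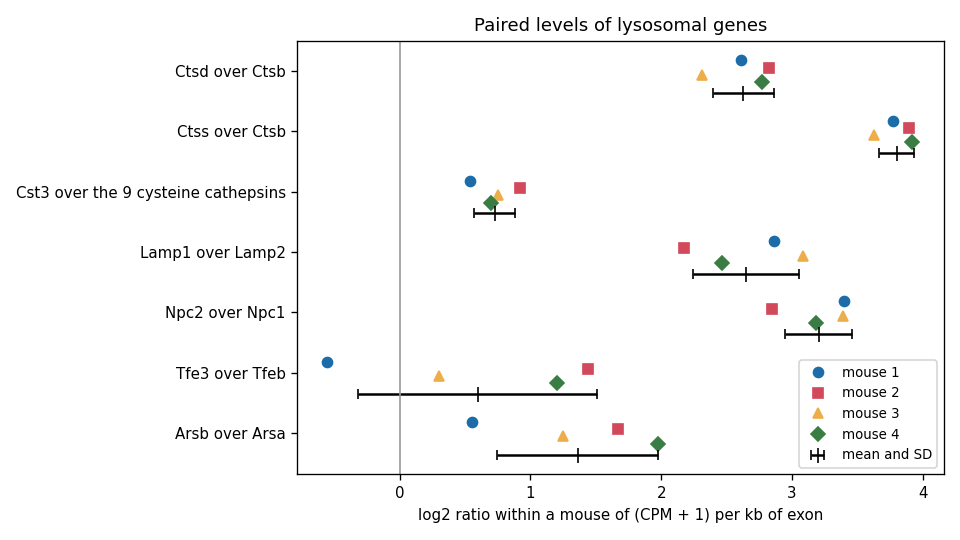
Log2 ratio of the levels per kb of exon within each mouse for 7 pairs, with mean and SD below the points; 0 means equal levels. All points but that of mouse 1 for Tfe3 over Tfeb lie to the right of 0.

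Between mice the 47 genes varied by a median SD of 0.355 in log2(CPM + 1), against 0.495 for the 9125 genes that averaged 10 CPM or more. The repeat runs of a mouse differed by a median of 0.0130 on the log2 scale, so sequencing error is a small part of this spread. The SD ran from 0.0450 for Npc2 to 1.81 for Ctsk. It was over 0.5 for 9 of the 47 genes, against 49.4% of the 9125 genes. Many of the 9125 genes have a lower level than most of the 47, and spread depends on level.

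**Figure D3:**
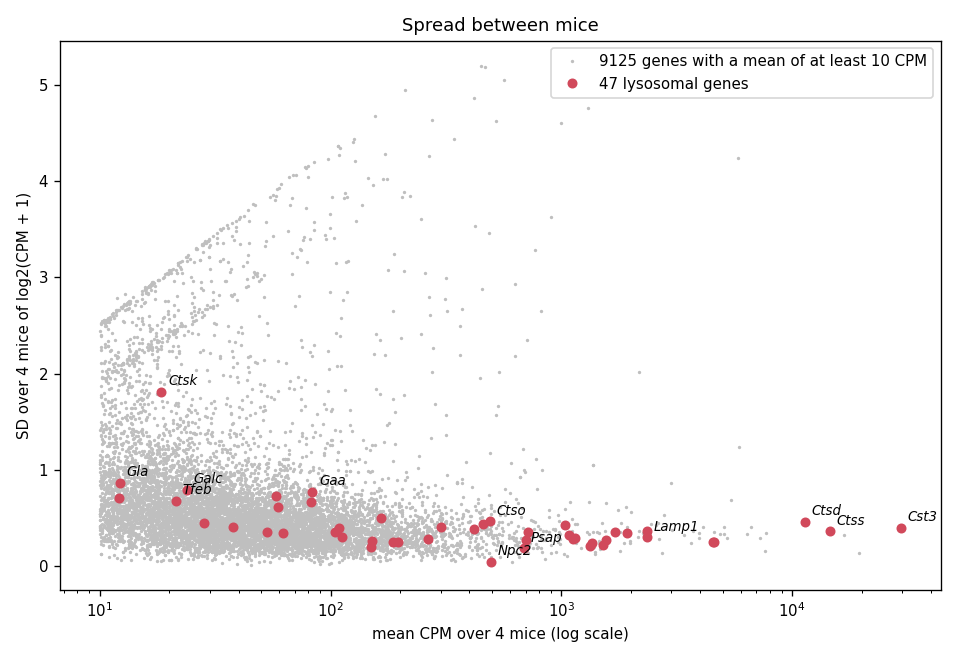
SD over mice of log2(CPM + 1) against mean CPM (log axis) for the 47 lysosomal genes (red) and the 9125 genes that averaged 10 CPM or more (grey). Ctsk stands highest of the red points at 1.81 and Npc2 lowest at 0.0450.

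The differences between mice followed a shared order in many of the genes. In mouse 3, 30 of the 47 had their lowest value, against 28.5% of the 9125 genes, and in mouse 2, 25 had their highest, against 29.4%. The highest 2 values lay in mice 2 and 4 for 22 genes (46.8%, against 21.8% of the 9125 genes), among them Cst3, Ctsz, Ctsl, Lgmn, Ctsd, Cd68 and Cd63. They lay in mice 1 and 2 for 11 genes (23.4%, near the 18.9% of the 9125 genes), with Ctss, Ctsb, Hexa and Grn among them. For 5 genes, Ctsk, Gla, Neu1, Lamp1 and Tfeb, they lay in mice 1 and 3, the libraries with high oligodendrocyte markers (10.6%, against 21.5% of the 9125 genes). For Gaa, Smpd1 and Mcoln1 they lay in mice 3 and 4, the libraries with CSF-cN markers (6.38%, against 16.5% of the 9125 genes). The part of those cells in these levels was not tested. The dissociation-response genes, 9 genes such as Fos and Jun that rise when tissue is taken apart, were also lowest in mouse 3, with a sum of 12623, 9416, 4632 and 7519 CPM, and their part was not tested either.

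The microglial marker sum was also highest in mouse 2 and lowest in mouse 3. Its full order, from highest to lowest, was mouse 2, 1, 4 and 3. Only 7 of the 47 genes had that order, against 6.13% of the genes that averaged 10 CPM or more. For 22 of the 47 the highest 2 values lay in mice 2 and 4, not in mice 1 and 2. Summed over the 47 genes, the level was 1.90, 2.01, 2.02 and 2.05 times the microglial marker sum in mice 1, 2, 3 and 4. That was a span of 1.08-fold, while the sum itself spanned 1.72-fold. Cst3, Ctss and Ctsd held 58.3% to 65.5% of the counts in the sum, so these spans describe mainly those genes. Setting each gene against the microglial markers made its SD smaller for 28 of the 47 (59.6%), against 33.7% of 9113 other genes. Cst3, Ctss, Ctsb, Ctsd, Hexa, Cd68 and Grn were among the 28. Among the 19 whose SD was not smaller were Ctsk, Ctso, Gla, Gaa, Neu1, Asah1, Psap, Npc2, Ppt1, Smpd1, Lamp1, Mcoln1 and Tfeb. Both sums are shares of the same libraries, so the counts of other cell types lower them together, and that part was not tested.

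**Figure D4:**
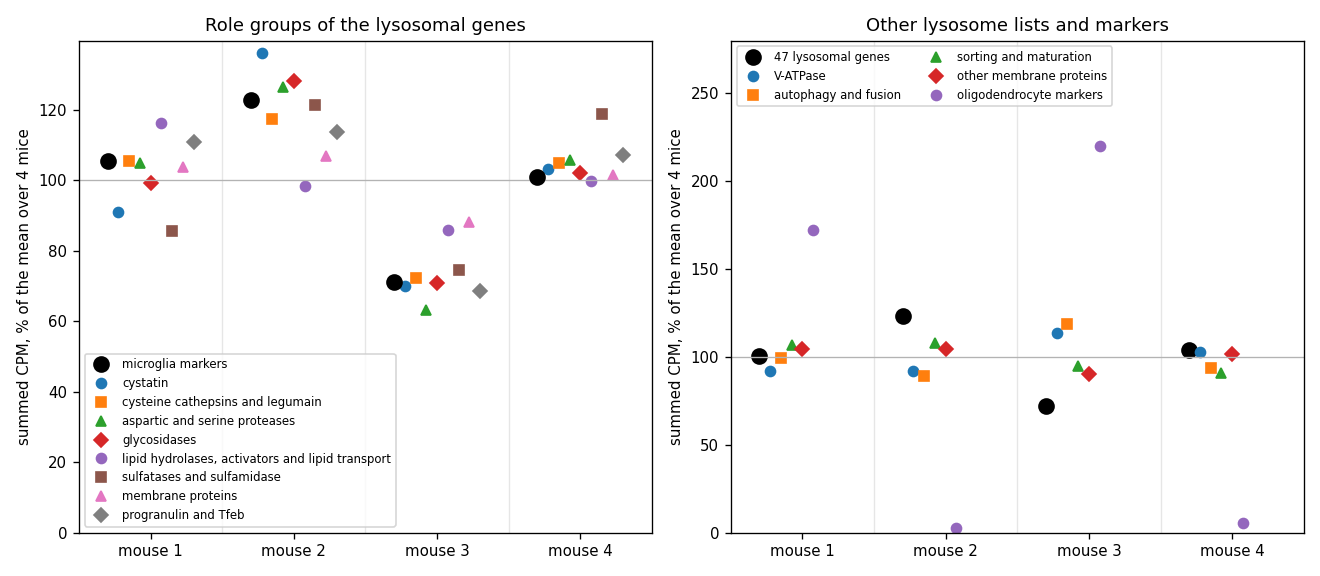
Summed CPM of gene lists in each mouse, as a percent of the mean over the 4 mice: the 8 role groups with the microglial markers (left), and all 47 genes with other lysosome lists and the oligodendrocyte markers (right). Every role group is lowest in mouse 3, whereas the V-ATPase and autophagy lists are highest there.

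Other genes of the lysosome were described from 8 lists with 150 genes. Of the 22 V-ATPase subunits and accessory proteins, 3 had no counts, and of the 19 tested, 18 were called above 10 CPM and 9 above 100 CPM. Atp6ap1, an accessory subunit, had the highest mean CPM of the list, at 641, 701, 684 and 602 CPM. The proton-ring subunit Atp6v0c followed with a mean of 634 CPM and the accessory Atp6ap2 with 632 CPM. Per kb of exon the order differed, with Atp6ap2 at 242, Atp6ap1 at 217 and Atp6v0c at 187 CPM, and Atp6ap1 was not highest. The list summed to 4009, 3994, 4942 and 4477 CPM, highest in mouse 3, where the 47 genes were lowest. Per microglial marker it spanned 2.14-fold.

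Of the 10 genes of enzyme sorting and maturation, 6 were called above 10 CPM and 1 above 100 CPM. That one, M6pr, the cation-dependent mannose 6-phosphate receptor, was at 464, 403, 429 and 353 CPM. Sumf1, which activates sulfatases, and Nagpa, which uncovers the mannose 6-phosphate signal, had means of 110 and 103 CPM. Igf2r, the larger receptor for the same signal, had 6, 0, 10 and 155 counts. By the counting of reads alone, the 0 in mouse 2 allows up to 0.0321 CPM. Of the 24 other hydrolases, 21 were called above 10 CPM and 6 above 100 CPM. Among them Pla2g15, a phospholipase, had a mean of 271 CPM. Of the 11 other cathepsins, 8 had no counts and none of the 2 tested was called above 10 CPM, with Ctse at 0.213 to 11.1 CPM, Ctsw at 0 to 2.33 CPM and Ctsg at 0 to 0.0446 CPM. Of the 12 other cystatins, 8 had no counts, and Cstb, an inhibitor inside the cell, led with a mean of 60.9 CPM, while Cst6 had 0.319 CPM. Cst7, an inhibitor known to rise in activated microglia, was at 9.06, 96.4, 22.5 and 28.3 CPM, with mouse 2 high.

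Of the 28 other membrane proteins and transporters, 27 were tested, 21 called above 10 CPM and 5 above 100 CPM, led by the sialomucin Cd164 with a mean of 1023 CPM, before the metal transporter Slc11a1 at 317 CPM and Laptm4a at 278 CPM. The nutrient-signalling list of 21 genes had 13 called above 10 CPM and 1 above 100 CPM, Rragc, a GTPase that recruits mTORC1 to the lysosome, with a mean of 183 CPM. Lamtor1 and Lamtor5, which anchor that GTPase, had means of 126 and 108 CPM. Tfec, of the Tfeb family, had no counts in any library, which by the counting of reads alone allows up to 0.0348 CPM. Of 22 autophagy and fusion genes, 19 were called above 10 CPM and 6 above 100 CPM. Rab7, the GTPase of late endosomes, was at 447, 413, 497 and 367 CPM. The cargo receptor Sqstm1 was at 369, 255, 554 and 398 CPM, highest in mouse 3. Map1lc3b, which coats autophagosomes, was also highest there, at 361, 306, 527 and 234 CPM. No gene of these 8 lists was called below 10 CPM, but the test rarely made that call (123 of all 18522 genes tested). Genes with fewer than 10 counts in total were not tested.

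**Figure D5:**
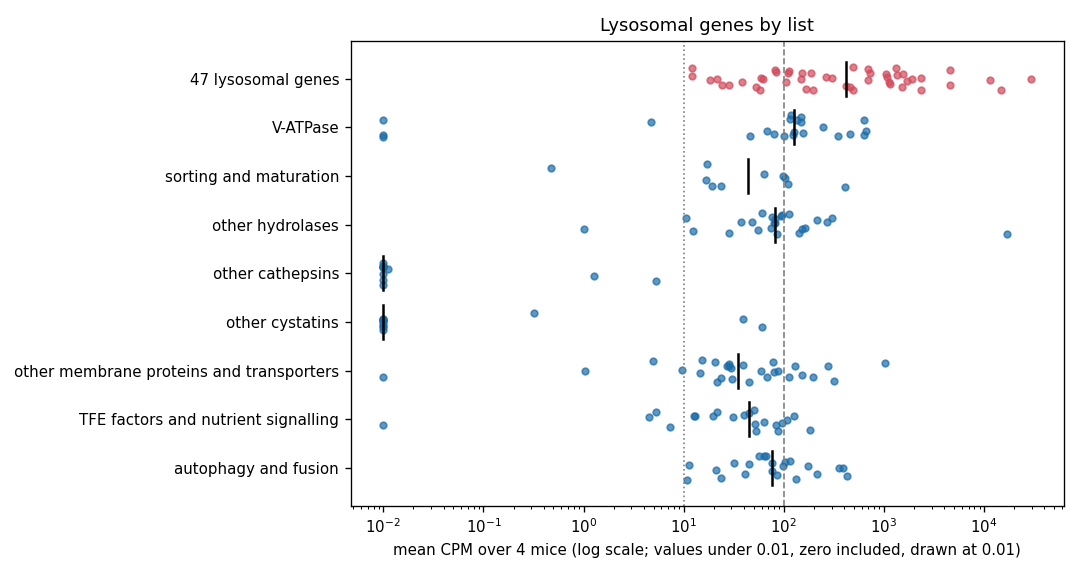
Mean CPM over 4 mice (log axis) of the 47 lysosomal genes (red) and of 8 other lysosome lists (blue), with the median as a bar and 10 and 100 CPM as dotted and dashed lines. The 47 genes have a median of 417 CPM.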

How the data were processed

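The deposited files hold unnormalized counts of each gene, 2 columns per mouse, and a table of log2 values that equals log2 of the summed counts over a size factor, plus 1, and served only as an alternative. The tools named in the submitters' processing notes are STAR, RSEM, DESeq2, Trim Galore and FastQC, and the build is mm10; for the role and version of each, and the annotation, nothing is given in the sources used here. Per the labels' protocols, cDNA was made with SMART-Seq v4 (11 PCR cycles) and libraries with Nextera XT. These keep no strand and carry no molecular identifiers, so overlapping genes share reads and counts grow with length. Exons of 8 of the 47 genes overlap another gene by over 10%: Ctsb, Ctsl, Ctsd, Ctsa, Hexa, Arsa, Arsb and Sgsh. The columns' numbers 1 to 4 were taken as mouse numbers, the 2 runs of a mouse were summed, and 0 columns were left without a sample. Numbered rows (2346, such as Neu1_1, which repeats Neu1) were kept.

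CPM were scaled by TMM. An intercept-only edgeR (4.0.16) quasi-likelihood model was fitted to all 18522 genes with at least 10 counts, once against 10 and once against 100 CPM. Calls were made at a Benjamini-Hochberg adjusted p under 0.05, and the script was tested on simulated data. Lengths and positions come from GENCODE M21 (GRCm38). A pseudocount of 1 CPM was used for spread and ratios, and 3 counts as the floor. The p-values of the level tests rest on a variance between the 4 mice that edgeR moderates over genes, not on each gene's own spread. On the log2 scale, the standard error against 100 CPM was 0.0552 for Cst3 and 0.0999 for Npc2. Their SDs between mice were 0.398 and 0.0450.

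All 47 genes are named, and of other lists the 3 with the highest mean, the genes of the pairs and any call against the rest; marker lists are given by their sums. Igf2r and Tfec were named after their values were seen, as were the markers Pkd2l1, Fos, Jun, Aldoc, S100b, Slc1a3 and Gfap. Some genes that this rule names, 1 of them in a pair, are not reported here. Genes, lists and levels were chosen with earlier results of these data known. Alternatives were DESeq2 (1.42.0), limma-voom (3.58.1), DESeq2 size factors, no filter, each run alone, no repeated rows, each mouse left out, mice 3 and 4 alone, other pseudocounts and other lengths. R 4.3.3 and Python 3.11.15 were used.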

Additional observations from a re-analysis of the deposited data

Results flagged for a closer look

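Among 55 values examined over 4 mice, 2 had a mouse that stood far from the other 3; chance marks about 1 in 20. Fuca1 was at a log2(CPM + 1) of 7.98 in mouse 2 (251 CPM), above 3 mice at 173 to 181 CPM. Grn was at a log2(CPM + 1) of 10.36 in mouse 3 (1311 CPM), below 3 mice at 2068 to 2194 CPM.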

How the results depend on the processing

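No paired analysis was possible because the labels give 1 group. Leaving out each mouse in turn gave 43 of the 47 genes above 10 CPM each time (35.9% to 36.7% of all genes). It gave 28 to 31 above 100 CPM (4.79% to 5.75% of all genes) and 6 to 7 below 100 CPM (27.4% to 32.2% of all genes). A smaller SD relative to microglial markers was found for 27 to 33 genes (33.5% to 43.7% of other genes). The share of counts was 8.28% to 9.67%, and the median SD was 0.261 (without mouse 3) to 0.390. In mice 3 and 4 alone 0 genes were called below 100 CPM. Without Cst3 the share was 5.96%. Against 100 CPM, the log2 difference of Gaa (-0.26) turned to 0.16 in mice 3 and 4 alone and ran from -0.46 (without mouse 3) to 0.029 (without mouse 1); that of Naglu (0.12) ran from -0.033 (without mouse 2) to 0.24 (without mouse 3), and that of Smpd1 (0.070) from -0.077 (without mouse 3) to 0.22 (without mouse 2), none past the threshold; the causes were not tested. DESeq2 called 42, 31 and 9 genes (above 10, above 100 and below 100 CPM), limma-voom 44, 31 and 11, and the fit with no filter 44, 31 and 10; below 100 CPM the share of all genes was 65.3%, 85.5% and 57.9%, against 48.7% in the fit reported. Over all alternatives, 526 comparisons of a gene with 100 CPM kept their direction and side of the threshold, 28 (in 15 genes) lost the call, 6 (Ctsk, Idua and Manba) gained one and 4 turned. At this depth counting error is small; 4 mice limit the precision.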
